A study of Mus musculus with 28 samples.

Results

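Expression of 10 genes known as markers of the choroid plexus was followed through cuprizone demyelination and remyelination in whole mouse brain. The genes were listed by name as markers of this tissue, with earlier results of these data known: Ttr, Prlr, Kl, Enpp2, Folr1, Clic6, Aqp1, Kcne2, Sostdc1 and Otx2. They are 10 of 55414 genes listed in the deposited tables. The study comprised 28 libraries, 7 in each of 4 groups. Naive, demyelination and remyelination mice carried floxed Tnfr1 (genotype TNFR1ff) on a C57BL/6 background, and the mice labelled mgTNFR1KO carried Cx3cr1-CreER with floxed Tnfr1 and were studied in remyelination only. Tamoxifen given to mgTNFR1KO mice removed TNFR1 from cells with an active Cx3cr1 locus, which the submitters call microglia-specific. Whether TNFR1ff mice also received tamoxifen is not given in the sources used here. Between the genotypes, loss of TNFR1 therefore cannot be told apart from the Cx3cr1-CreER allele or from tamoxifen. Naive mice received no cuprizone (code 0), demyelination mice were taken at code 5, and both remyelination groups at code 6+1. The labels give no unit for these codes.

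The choroid plexus is the folded epithelium inside the brain ventricles that secretes cerebrospinal fluid. Its cells move ions and water across their apical membrane, release carrier proteins such as transthyretin into the fluid, and take up hormones and vitamins from blood. Cuprizone is a copper chelator in food that kills oligodendrocytes, the cells that make myelin, and myelin returns after it is withdrawn. The comparisons ask how these genes stood at each stage against naive brain. They also ask whether these genes differed in remyelination between TNFR1ff mice and mgTNFR1KO mice, in which the TNF receptor TNFR1 was deleted in microglia.

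Libraries were made with QuantSeq 3′ FWD, a tag method that reads only the polyadenylated end of a transcript. Levels are given as CPM, which are counts divided by the TMM-scaled library size. Since a transcript gives 1 tag whatever its length, levels of different genes are compared without a length correction. Library totals ran between 1522919 and 3137252 counts. A single gene without a known symbol took between 1.33 and 25.5% of the counts of a library, with the extremes in mgTNFR1KO replicate 1 and naive replicate 1. Those 2 libraries stand apart, and values without them are given where they bear on a call. Tnfrsf1a, the gene of TNFR1, averaged 22.1 ± 4.22 CPM in mgTNFR1KO remyelination and 23.2 ± 4.47 CPM in TNFR1ff remyelination (SD, n = 7 each; log2 fold change −0.05, adjusted p = 0.961). The tags of this gene may come from exons that the deletion spares, and microglia are few among brain cells, so it does not check the labels. Fold changes are given as log2 values, with SE for the standard error. The p-values are from the edgeR quasi-likelihood test, adjusted by the Benjamini-Hochberg method over 12423 genes. A gene is called higher or lower below an adjusted p of 0.05.

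All 10 genes had counts, and their levels were very unequal. Ttr held 66.2% and Enpp2 28.6% of the counts of the 10 genes over all libraries, while each of the other 8 held between 0.13 and 1.35%. Summed over the 28 libraries, Ttr had 47272 counts, Prlr 966 and Kcne2, the lowest, 94. Folr1, Aqp1 and Kcne2 did not pass the filter on low counts, so 7 of the 10 genes were tested. In whole-brain RNA, fewer choroid plexus cells in a sample and less RNA of these genes per cell cannot be told apart, and a change in the amount of plexus left in the sample is also not separable from either.

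**Figure D1:**
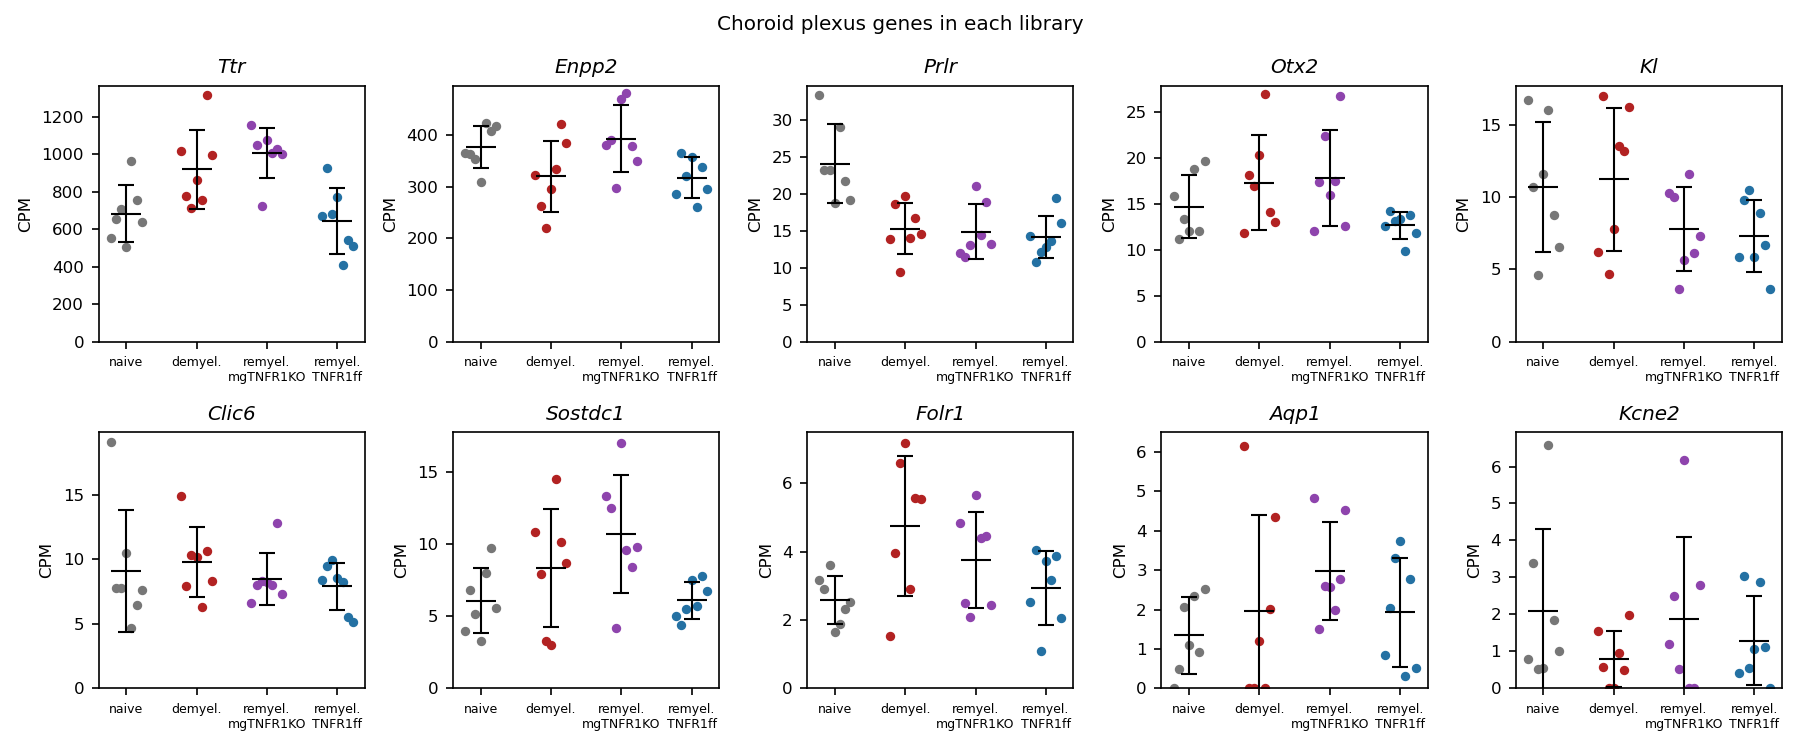
Level in CPM (linear axis starting at 0) of each of the 10 genes in the 28 libraries, in 4 groups of 7; points are libraries, and horizontal lines with bars give the mean and SD. Ttr lies higher in mgTNFR1KO remyelination (mean 1006 CPM) than in naive brain (mean 683 CPM), and Prlr lies highest in naive brain (mean 24.1 CPM).

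Prlr and Ttr were the members with calls, only against naive brain, and they went in different directions. Prlr was lower in both remyelination groups than in naive brain, at log2 fold changes of −0.76 (TNFR1ff) and −0.68 (mgTNFR1KO). Ttr was higher in mgTNFR1KO remyelination than in naive brain, at a log2 fold change of 0.56. By the same edgeR fit Ttr was not called in any comparison among the TNFR1ff groups. Genotype and stage both differ between mgTNFR1KO remyelination and naive brain, and their parts cannot be told apart there. None of the 7 tested genes was called in demyelination against naive, where 2.0% of all tested genes were called, although 3 of the 7 had an unadjusted p under 0.05. In TNFR1ff remyelination against naive 1 of 7 was called, against 0.628% of all genes. In mgTNFR1KO remyelination against naive 2 of 7 were called, against 3.24% of all genes. In TNFR1ff remyelination against demyelination 0 of 7 were called, against 0.386% of all genes, with 2 of 7 at an unadjusted p under 0.05. In mgTNFR1KO against TNFR1ff remyelination 0 of 7 were called, against 0.0483% of all genes, with 4 of 7 at an unadjusted p under 0.05. DESeq2 called 1 of the 7 in demyelination against naive (Prlr), against 342 of all 12423 genes. It called 0 in TNFR1ff remyelination against demyelination, against 73 of 12423. In mgTNFR1KO against TNFR1ff remyelination it called 1 (Ttr), against 11 of the 7365 genes given an adjusted p. The 3 comparisons with naive brain share the same 7 naive libraries. The median log2 fold change of the 7 tested genes was 0.15, −0.22 and 0.06 in demyelination, TNFR1ff remyelination and mgTNFR1KO remyelination against naive. It was −0.45 in TNFR1ff remyelination against demyelination and 0.31 in mgTNFR1KO against TNFR1ff remyelination, where all 7 were above 0. Prlr (0.08, SE 0.191), Kl (0.08, SE 0.313) and Clic6 (0.09, SE 0.263) were there closer to 0 than their SE. Of 19 further tested genes of choroid plexus epithelium, 10 were above 0 between the remyelination groups, with a median of 0.08. Over all tested genes the median lay between −0.01 and 0.00 in the same comparisons.

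**Figure D2:**
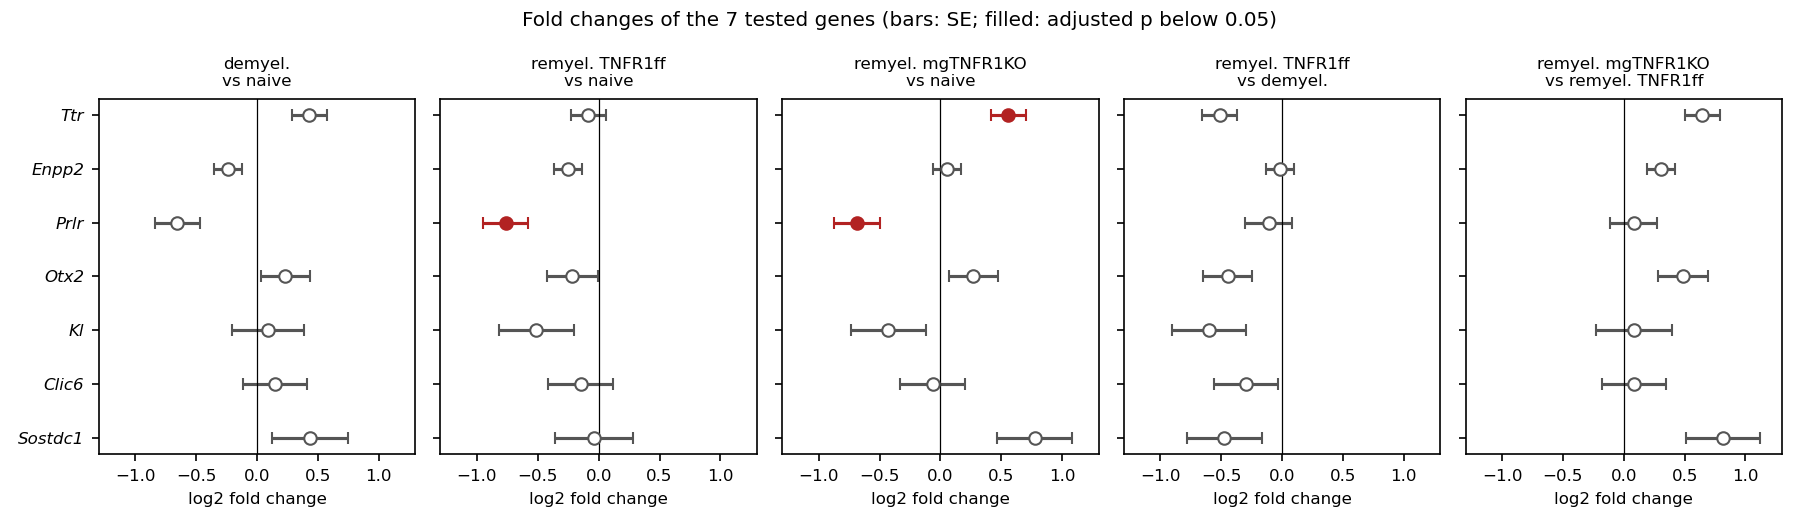
Log2 fold change of each of the 7 tested genes in the 5 comparisons, with bars for the SE; filled points are called at an adjusted p below 0.05. Prlr lies left of 0 in the 3 comparisons with naive brain, and Ttr lies right of 0 in mgTNFR1KO remyelination against both naive brain (0.56) and TNFR1ff remyelination (0.64).

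Ttr (ENSMUSG00000061808.5) encodes transthyretin, the carrier of thyroid hormone and retinol-binding protein in cerebrospinal fluid. In naive brain the lowest, median and highest libraries had 504, 656 and 962 CPM. In demyelination they had 715, 862 and 1317 CPM. In mgTNFR1KO remyelination they had 726, 1025 and 1157 CPM, and in TNFR1ff remyelination 408, 672 and 924 CPM. All 7 demyelination libraries and all 7 mgTNFR1KO libraries lay above the naive median, and 6 of 7 mgTNFR1KO libraries lay above every naive library. By mean level the order was mgTNFR1KO remyelination, demyelination, naive, TNFR1ff remyelination, and the last pair differed by less than its spread (643.9 ± 173.7 CPM in TNFR1ff remyelination and 682.7 ± 150 CPM in naive brain, SD, n = 7 each). The first pair was not compared by a test.

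In mgTNFR1KO remyelination against naive, Ttr was called higher (log2 fold change 0.56, SE 0.14, adjusted p = 0.0247 by edgeR). The call was lost when naive replicate 1 and mgTNFR1KO replicate 1 were left out together (0.48, adjusted p = 0.0578). It was also lost without naive replicate 1, 2 or 4 or mgTNFR1KO replicate 7, at adjusted p between 0.0535 and 0.0597. Demyelination against naive gave 0.43 (SE 0.14), which was not called (adjusted p = 0.127), and was called without naive replicate 5 (adjusted p = 0.045).

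Between the remyelination groups, 6 of 7 mgTNFR1KO libraries had more Ttr than every TNFR1ff library, and 1, replicate 3 at 726 CPM, lay inside the TNFR1ff range. The log2 fold change of 0.64 (SE 0.14) had an unadjusted p of 6.42e-05 and was not called, at an adjusted p of 0.114 by edgeR. Whether it is called depends on the fit. DESeq2 gave an adjusted p of 0.0131, a fit without the filter on low counts 0.000673, and edgeR without TNFR1ff replicate 2 or mgTNFR1KO replicate 3 0.0146 and 0.0361. TNFR1ff remyelination against demyelination had 5 of 7 libraries below every demyelination library, with a log2 fold change of −0.51 (SE 0.14, adjusted p = 0.141). Without TNFR1ff replicate 2 the adjusted p was 0.0265, and without the filter 0.0115.

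Markers of other tissues are given beside Ttr. Summed hemoglobin and other red blood cell genes ran from 315 to 408 CPM in demyelination, 515 to 1157 CPM in mgTNFR1KO remyelination and 371 to 726 CPM in TNFR1ff remyelination, against 252 to 505 CPM in naive brain, and 4 of 4 tested were called higher in mgTNFR1KO remyelination than in naive brain. Summed markers of the meninges ran from 606 to 1063 CPM in demyelination, 1046 to 1453 CPM in mgTNFR1KO remyelination and 946 to 1374 CPM in TNFR1ff remyelination, against 746 to 1058 CPM in naive brain. Mean sums of red blood cell genes in demyelination, mgTNFR1KO remyelination, TNFR1ff remyelination and naive brain were 352, 746, 559 and 361 CPM. Those of meningeal genes were 823, 1257, 1067 and 941 CPM in the same order. A sum weights abundant genes most. Against naive, the median log2 fold change of the 9 tested meningeal genes was −0.18 in demyelination, 0.34 in mgTNFR1KO remyelination and 0.02 in TNFR1ff remyelination. Of 9 tested genes of the meningeal list, 1 was called higher in mgTNFR1KO remyelination than in naive brain, the prostaglandin D synthase gene Ptgds (log2 fold change 0.45, adjusted p = 0.0104). Markers of the ependyma, the ciliated lining of the ventricles, summed to 63.2 to 87.9 CPM in demyelination, 72.7 to 93.9 CPM in mgTNFR1KO remyelination and 51.6 to 79.8 CPM in TNFR1ff remyelination, against 46.4 to 91.1 CPM in naive brain. None of 4 tested ependymal genes (Rarres2, Foxj1, Rsph1 and 1110017D15Rik were those with enough counts) was called in any of the 5 comparisons. No gene of the red blood cell, meningeal or ependymal lists was at 0 in all libraries. The part of these cells in the Ttr difference was not tested.

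Prlr (ENSMUSG00000005268.21) encodes the receptor of the pituitary hormone prolactin, which signals through the kinase Jak2 and the transcription factor Stat5 and is dense on choroid plexus epithelium. In naive brain the lowest, median and highest libraries had 18.7, 23.2 and 33.4 CPM. In demyelination they had 9.40, 14.6 and 19.8 CPM. In mgTNFR1KO remyelination they had 11.5, 13.3 and 21.1 CPM, and in TNFR1ff remyelination 10.8, 13.7 and 19.4 CPM. Every library of the 3 cuprizone groups lay below the naive median. Of 7 libraries each, 6 in demyelination, 5 in mgTNFR1KO remyelination and 6 in TNFR1ff remyelination lay below every naive library.

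Prlr was called lower in TNFR1ff remyelination than in naive brain (log2 fold change −0.76, SE 0.185, adjusted p = 0.0322) and in mgTNFR1KO remyelination than in naive brain (−0.68, SE 0.186, adjusted p = 0.0328). Demyelination against naive gave −0.65 (SE 0.186) with an adjusted p of 0.0528 by edgeR, and 0.0326 by DESeq2. The remyelination calls are close to the threshold. With naive replicate 1 and mgTNFR1KO replicate 1 left out together they were lost (−0.68, adjusted p = 0.0766 in TNFR1ff and −0.56, adjusted p = 0.0762 in mgTNFR1KO). The fit without the filter on low counts ended both as well (adjusted p = 0.0677 in TNFR1ff and 0.0674 in mgTNFR1KO). Leaving out 1 library at a time kept the log2 fold change between −0.85 and −0.68 in TNFR1ff remyelination, and ended the call in 7 of 14 cases, namely naive replicates 1, 2 and 5 and TNFR1ff replicates 2, 3, 4 and 5 (highest adjusted p 0.102). In mgTNFR1KO remyelination it stayed between −0.78 and −0.60, and the call ended in 8 of 14 cases, namely naive replicates 1, 2, 3 and 5 and mgTNFR1KO replicates 2, 3, 5 and 7 (highest adjusted p 0.0843). Between the stages after naive, the log2 fold changes of Prlr were −0.11 (TNFR1ff remyelination against demyelination, adjusted p = 0.967) and 0.08 (mgTNFR1KO against TNFR1ff remyelination, adjusted p = 0.946).

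Prlr was also set against the other choroid plexus genes. Per 1000 Ttr counts, Prlr had 17.1 ± 4.77 counts in demyelination, 15 ± 3.74 in mgTNFR1KO remyelination and 24.0 ± 9.46 in TNFR1ff remyelination, against 36.4 ± 10.98 in naive brain (SD, n = 7 each). The highest demyelination library (24.0) and the highest mgTNFR1KO library (19.7) lay under the lowest naive library (28.8), while TNFR1ff libraries (11.7 to 35.8) overlapped naive ones. Ttr itself differs between groups, so the ratio was also taken to 7 low-abundance genes (Otx2, Kl, Clic6, Sostdc1, Folr1, Aqp1 and Kcne2 together). Per 100 counts of those, Prlr had 28.4 ± 6.54 counts in demyelination, 27.8 ± 4.64 in mgTNFR1KO remyelination and 36.4 ± 10.96 in TNFR1ff remyelination, against 51.8 ± 6.66 in naive brain. Again no demyelination or mgTNFR1KO library reached the lowest naive library (42.2). These ratios were chosen with the levels known and carry no test.

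**Figure D3:**
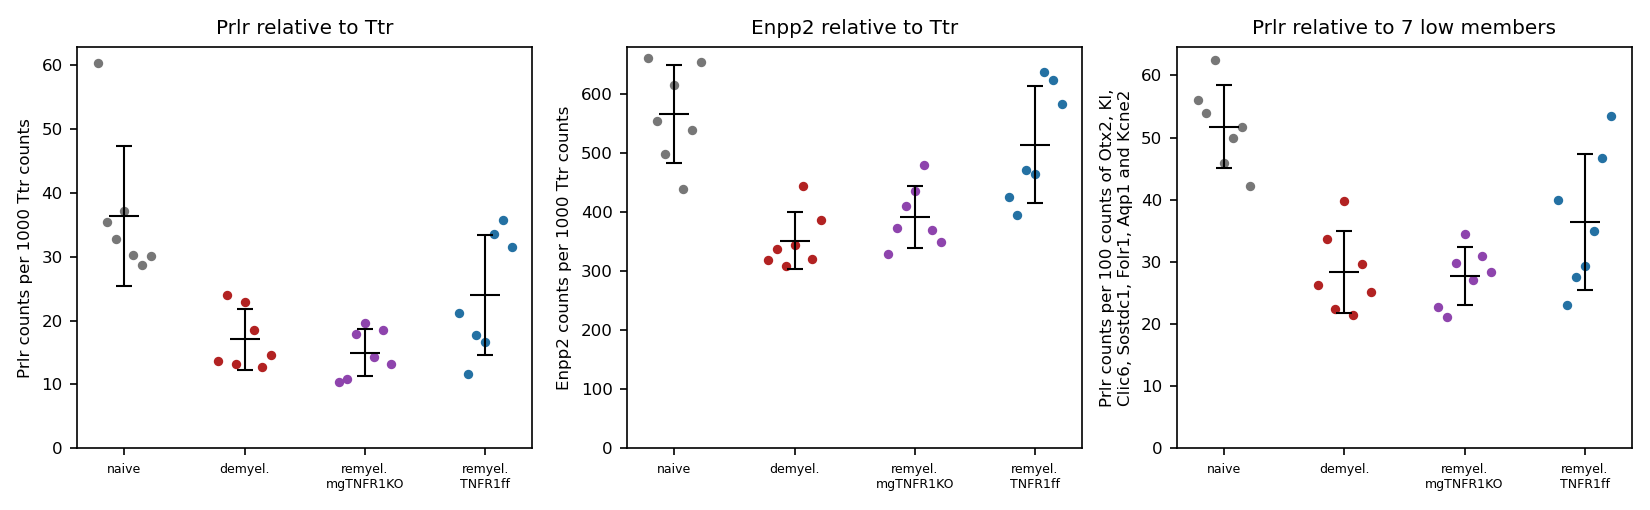
Counts of Prlr (left) and Enpp2 (middle) per 1000 Ttr counts, and of Prlr per 100 counts of 7 low-abundance choroid plexus genes (right), in each library; axes are linear and start at 0, points are libraries, and lines with bars give the mean and SD. Naive libraries have the highest mean in all 3 panels (36.4, 566 and 51.8).

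Promoter windows came from a RefSeq table (build GRCm38.p6, 250 bases before to 50 after a transcription start). Those searched covered 5 of the 10 genes, 11 windows in all. Windows of the 10 genes on a single chromosome were left out of the search but kept among those of all genes. Members other than these 5 may therefore have windows. A window of Prlr is shown because Prlr is the gene called in both remyelination groups and Stat5 is the factor its receptor activates; it lies at chr15:10223656-10223955 on the + strand, and capitals mark the match to the Stat5 motif TTCNNNGAA, which begins at position −110 from the start site.
Prlr: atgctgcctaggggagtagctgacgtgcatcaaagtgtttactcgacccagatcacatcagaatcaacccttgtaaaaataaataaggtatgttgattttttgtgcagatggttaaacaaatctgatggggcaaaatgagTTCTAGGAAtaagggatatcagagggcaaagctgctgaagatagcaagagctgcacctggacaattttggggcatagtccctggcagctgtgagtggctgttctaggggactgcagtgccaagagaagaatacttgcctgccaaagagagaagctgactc
Both strands were searched, and TTCNNNGAA was present in 2 of the 11 windows, the other being of Otx2, against 8.3% of 32851 windows of the same length over all genes. The homeodomain motif TAATCC, bound by Otx factors, was present in 1 of the 11, an Otx2 window, against 7.1% of all windows. In these 11 windows no match of one motif overlapped a match of the other. Prlr has 3 windows in this table, and 3′ tags do not show which start site was used. A match describes these letters and is not a binding site.

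Other genes of prolactin signalling were not called in any of the 5 comparisons (5 of 8 listed were tested). The 3 most abundant were Socs2, a feedback inhibitor of cytokine receptors, Stat5b and Jak2. Stat5b averaged 33.6 ± 6.65 CPM in demyelination, 32.0 ± 8.67 CPM in mgTNFR1KO remyelination and 31.7 ± 4.78 CPM in TNFR1ff remyelination, against 31.1 ± 5.11 CPM in naive brain. Jak2 averaged 14.1 ± 3.95 CPM in mgTNFR1KO remyelination and 21.5 ± 3.66 CPM in naive brain, with a log2 fold change of −0.61 (SE 0.183, adjusted p = 0.0539). These genes are expressed widely in brain, so their levels here are not those of the choroid plexus. Among carriers and receptors of thyroid hormone and retinol, the ligands that transthyretin moves, 0 of 10 tested genes were called in any comparison. The most abundant were Klf9, a thyroid hormone target, and the receptor genes Thra and Thrb.

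Enpp2 (ENSMUSG00000022425.17) encodes autotaxin, the secreted enzyme that makes the lipid signal lysophosphatidic acid, and is made by oligodendrocytes as well as by choroid plexus. In naive brain the lowest, median and highest libraries had 310, 366 and 422 CPM. In demyelination they had 220.0, 323 and 421 CPM. In mgTNFR1KO remyelination they had 297, 380 and 482 CPM, and in TNFR1ff remyelination 260, 320 and 365 CPM. All groups overlapped. All 7 TNFR1ff remyelination libraries lay below the naive median, and 5 of 7 mgTNFR1KO libraries lay above every TNFR1ff remyelination library.

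No comparison called Enpp2. Its log2 fold changes against naive were −0.23 (demyelination, SE 0.115, adjusted p = 0.374), −0.25 (TNFR1ff remyelination, adjusted p = 0.423) and 0.06 (mgTNFR1KO remyelination, adjusted p = 0.833). Between mgTNFR1KO and TNFR1ff remyelination it was 0.31 (SE 0.115, adjusted p = 0.559). Per 1000 Ttr counts, Enpp2 had 351 ± 48.3 counts in demyelination, 392 ± 52.4 in mgTNFR1KO remyelination and 514 ± 98.5 in TNFR1ff remyelination, against 566 ± 82.3 in naive brain (SD, n = 7 each). The summed level of 12 oligodendrocyte genes is given beside this, since Enpp2 is also an oligodendrocyte gene. It ran from 2820 to 3962 CPM in demyelination, 6172 to 7499 CPM in mgTNFR1KO remyelination and 5581 to 7137 CPM in TNFR1ff remyelination, against 6455 to 7531 CPM in naive brain. Demyelination libraries lay under those of every other group, with 11 of the 12 genes called lower and Trf, the transferrin gene, called higher than in naive brain. In TNFR1ff remyelination against demyelination 9 of the 12 were called higher, and in mgTNFR1KO remyelination against naive 2 were called lower, Ermn and Anln. The part of oligodendrocytes in the level of Enpp2 was not tested.

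Within the lysophosphatidic acid pathway, 1 of 5 tested genes was called. Lpar1, a receptor of this lipid, averaged 32.6 ± 9.71 CPM in demyelination and 75.6 ± 8.29 CPM in naive brain, and was called lower (log2 fold change −1.21, SE 0.153, adjusted p = 3.27e-07). It was called higher in TNFR1ff remyelination, at 63.4 ± 15.1 CPM, than in demyelination (0.95, SE 0.153, adjusted p = 0.000219). Lpar1 is also an oligodendrocyte gene.

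Kl (ENSMUSG00000058488.8) encodes klotho, a membrane co-receptor for the hormone FGF23 that choroid plexus also sheds into the fluid. The lowest, median and highest libraries had 4.64, 10.7 and 16.7 CPM in naive brain, and 4.70, 13.1 and 17.0 CPM in demyelination. They had 3.65, 7.34 and 11.6 CPM in mgTNFR1KO remyelination and 3.62, 6.65 and 10.5 CPM in TNFR1ff remyelination. All 7 TNFR1ff remyelination libraries lay below the medians of both naive brain and demyelination, and all groups overlapped. In TNFR1ff remyelination Kl gave a log2 fold change of −0.51 (SE 0.308, adjusted p = 0.584) against naive and −0.60 (SE 0.304, adjusted p = 0.763) against demyelination. Of 8 tested genes of klotho and FGF signalling, 1 was called. Fgfr2, a receptor tyrosine kinase gene, was called lower in demyelination (39.4 ± 7.58 CPM) than in naive brain (58.9 ± 10.1 CPM), with a log2 fold change of −0.57 and an adjusted p of 0.0186. Fgfr2 is also an oligodendrocyte gene, and 11 of the 12 oligodendrocyte genes were called lower in the same comparison. The part of oligodendrocytes in the level of Fgfr2 was not tested.

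Otx2 (ENSMUSG00000021848.17) encodes the homeodomain transcription factor that choroid plexus needs to form and that it secretes. Its lowest, median and highest libraries had 11.2, 13.4 and 19.7 CPM in naive brain, and 11.8, 16.9 and 27.0 CPM in demyelination. In mgTNFR1KO remyelination they had 12.1, 17.4 and 26.8 CPM, and in TNFR1ff remyelination 9.86, 13.2 and 14.2 CPM. Of the mgTNFR1KO libraries, 5 of 7 lay above every TNFR1ff remyelination library. That comparison gave a log2 fold change of 0.49 (SE 0.202, unadjusted p = 0.021), which was not called (adjusted p = 0.609). TNFR1ff remyelination against demyelination gave −0.45 (SE 0.203, adjusted p = 0.699).

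Sostdc1 (ENSMUSG00000036169.7) encodes a secreted inhibitor of BMP and Wnt signals. The lowest, median and highest libraries had 3.30, 5.56 and 9.71 CPM in naive brain, and 2.99, 8.69 and 14.5 CPM in demyelination. In mgTNFR1KO remyelination they had 4.17, 9.78 and 17.0 CPM, and in TNFR1ff remyelination 4.40, 5.73 and 7.76 CPM. As with Ttr, 6 of 7 mgTNFR1KO libraries lay above every TNFR1ff remyelination library, and replicate 3 lay below them all. The log2 fold change of 0.82 (SE 0.305, unadjusted p = 0.0107) was not called (adjusted p = 0.559). Against naive it was 0.78 (SE 0.308, adjusted p = 0.154).

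Clic6, Folr1, Aqp1 and Kcne2 belong to transport across the epithelium. Clic6 (ENSMUSG00000022949.10), a chloride intracellular channel gene, averaged 9.79 ± 2.75 CPM in demyelination, 8.48 ± 2.01 CPM in mgTNFR1KO remyelination and 7.90 ± 1.84 CPM in TNFR1ff remyelination, against 9.11 ± 4.72 CPM in naive brain. Its log2 fold changes lay between −0.30 and 0.15 in the 5 comparisons and none was called. The naive mean rests in part on replicate 1, at 19.1 CPM. Without it and mgTNFR1KO replicate 1, the log2 fold change against naive turned to 0.10 in TNFR1ff remyelination and 0.23 in mgTNFR1KO remyelination.

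Folr1 (ENSMUSG00000001827.13), the folate receptor that carries the vitamin into cerebrospinal fluid, had 67 counts summed over the 7 demyelination libraries, 54 in mgTNFR1KO remyelination and 48 in TNFR1ff remyelination, against 34 in naive brain. Of the demyelination libraries, 5 of 7 lay above every naive library and 1 lay below them all. Aqp1 (ENSMUSG00000004655.6), the apical water channel, had 29 counts in demyelination, 44 in mgTNFR1KO remyelination and 28 in TNFR1ff remyelination, against 19 in naive brain. It was at 0 in 3 of 7 demyelination libraries and 1 of 7 naive libraries. Kcne2 (ENSMUSG00000039672.13), the beta subunit of an apical potassium channel, had 12 counts in demyelination, 28 in mgTNFR1KO remyelination and 24 in TNFR1ff remyelination, against 30 in naive brain. These 3 genes had no test in the fit with the filter, and in a fit without it none of their 15 comparisons was called (lowest adjusted p 0.426). The largest change of Folr1 in that fit, in demyelination against naive, was 0.88 (SE 0.468, adjusted p = 0.486). In a single library 3 counts correspond to between 0.956 and 1.97 CPM.

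Of 8 tested genes of ion and water transport, 1 was called. Car2, the carbonic anhydrase gene of choroid plexus and oligodendrocytes, averaged 46.1 ± 16.7 CPM in demyelination and 75.6 ± 17.7 CPM in naive brain (log2 fold change −0.72, adjusted p = 0.0279). Of 9 tested genes of folate metabolism, 0 were called in any comparison.

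A further 36 matched genes of choroid plexus epithelium, chosen by name, all had counts and 19 were tested, of which 0 were called in any of the 5 comparisons. The most abundant, the cation channel gene Trpm3, the Na-K-Cl cotransporter gene Slc12a2 and the sugar transporter family gene Slc35f3, are also neuronal or glial. Their summed level averaged 405 ± 41.1 CPM in demyelination, 419 ± 55.4 CPM in mgTNFR1KO remyelination and 399 ± 18.4 CPM in TNFR1ff remyelination, against 418 ± 38.7 CPM in naive brain (SD, n = 7 each). Tmem72, a membrane protein gene of this epithelium, averaged 8.31 ± 3.75 CPM in mgTNFR1KO remyelination and 5.98 ± 1.26 CPM in TNFR1ff remyelination (log2 fold change 0.45, adjusted p = 0.745). Tmem72 was singled out after its values were seen. Of the 19 tested genes of this list, only 10 had a log2 fold change above 0 in that comparison, with a median of 0.08.

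Whether the members vary together was asked within groups, after the mean log2 CPM of each group was subtracted. Over the 28 libraries Enpp2 followed Ttr (Pearson r = 0.712, adjusted p = 0.00018; Spearman rho = 0.708, adjusted p = 0.00042; permutation within groups, 2-sided, adjusted over 6 relations). The r of Enpp2 with Ttr was the highest of all 12422 other genes tested. Without the 2 libraries farthest from the Ttr median, TNFR1ff remyelination replicates 5 and 2, r was 0.683. Sostdc1 had r = 0.40 (adjusted p = 0.0962; rho = 0.459, adjusted p = 0.0502). Its relation passed when those 2 libraries were left out (r = 0.534, adjusted p = 0.0303). With naive replicate 1 and mgTNFR1KO replicate 1 left out instead, it did not pass (r = 0.362, adjusted p = 0.192 by the same permutation). Kl had r = 0.238 (rho = 0.229), Prlr 0.013 (rho = −0.046), Clic6 −0.061 (rho = 0.044) and Otx2 −0.093 (rho = −0.192), none of which passed (lowest adjusted p 0.49). The r over all 12422 other genes had a median of −0.005 and a 95th percentile of 0.319.

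**Figure D4:**
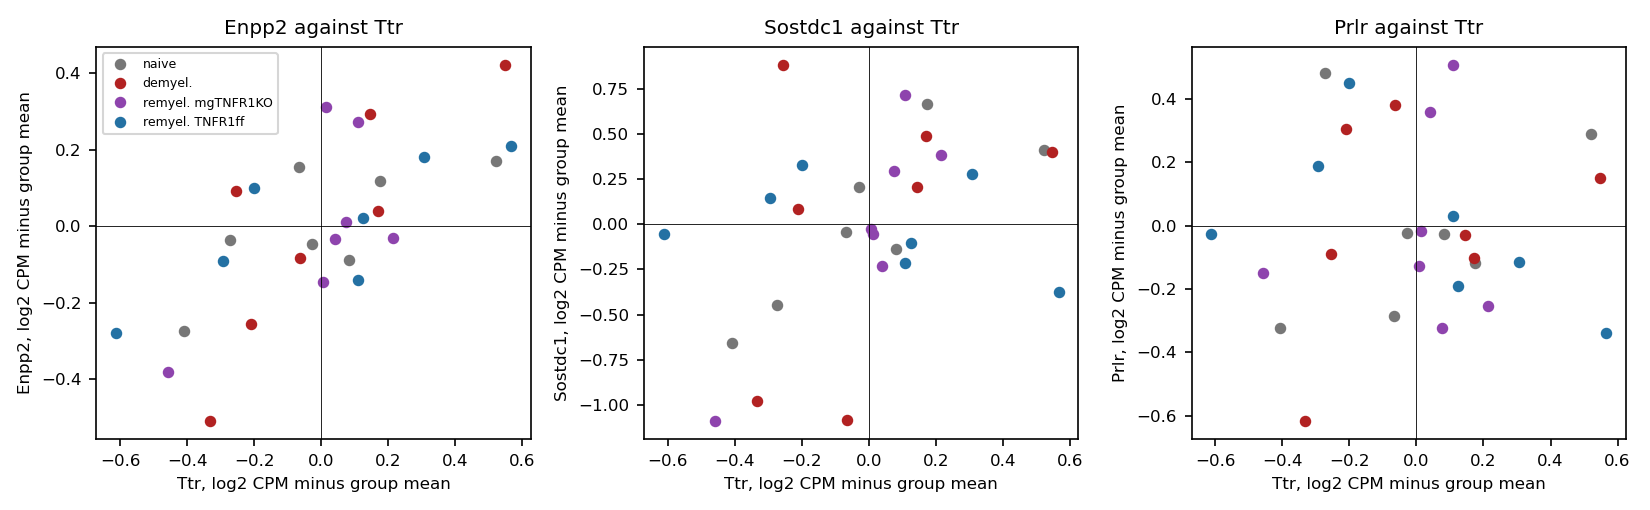
Deviation of each library from its group mean in log2 CPM, for Ttr on the horizontal axis and for Enpp2 (left), Sostdc1 (middle) and Prlr (right) on the vertical axis; points are the 28 libraries, coloured by group. Enpp2 rises with Ttr (r = 0.712), Sostdc1 less closely (r = 0.40), and Prlr has no such trend (r = 0.013).

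Outside the 10 genes, those whose within-group pattern was most like Ttr over 28 libraries were Aars2 (r = 0.654), Gm45204, Nudt4, Aifm3, Pdhx, Riox2, Mob3b, Spata2l, Timp4 and Pld2 (r = 0.589). None of them is on the choroid plexus lists. Of the 19 further choroid plexus genes tested, 14 had a positive r with Ttr, the median was 0.192, and 5 lay above the 95th percentile of all genes. The highest were Tmem72 (r = 0.586) and the carbonic anhydrase gene Car12 (r = 0.491), named after their values were seen. These are descriptions across genes of the same libraries, which share depth and scaling.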

How the data were processed

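Whole-brain RNA was extracted with TRIzol and made into QuantSeq 3′ FWD libraries, per the labels' protocols. The expected counts deposited by the authors are RSEM estimates of reads per gene, not normalised, per the file headers. FastQC, cutadapt, STAR, RSEM, edgeR and the mouse build GRCm39 appear in the submitters' processing notes, and their roles, versions and settings are not given there. Over all 55414 gene entries of a library, zeros included, between 96.59 and 97.69% of expected counts were whole within 0.005, and all were rounded. Symbols were matched by identifier for 52081 of 55414 genes; genes without one held 10.76% of counts. The labels do not say that replicates are separate animals, so p-values measure the spread between these samples, which may be technical. No pair of replicate libraries agreed within sampling noise.

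Counts were scaled by TMM, filtered by filterByExpr (12423 genes) and tested with the edgeR 4.0.16 quasi-likelihood test (R 4.3.3), in 1 fit of 28 libraries with a mean per group, adjusted by Benjamini-Hochberg at 0.05. The common biological coefficient of variation was 19.5%. The edgeR fit, and no other step, was tested on simulated data. Correlations used log2 CPM (prior count 2) with group means subtracted and 100000 permutations within groups (Python 3.11.15, numpy 2.4.6). Alternatives were library totals, DESeq2 1.42.0, no filter, a replicate block, only the groups compared, the most abundant gene left out, naive 1 and mgTNFR1KO 1 left out, and each library left out. The relation to the oligodendrocyte list was added after seeing the data.

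The 10 genes and all lists (further choroid plexus epithelium, thyroid hormone and retinol, prolactin, klotho and FGF, lysophosphatidic acid, folate, ion and water transport, ependyma, meninges, oligodendrocyte, endothelium, pituitary, cerebellum, striatum, hypothalamus, olfactory bulb, red blood cells) were chosen with earlier results of these data known. From each list the genes that passed were to be named, or otherwise up to 3 of the highest mean CPM, together with the 10 genes most like Ttr; some names are not reported here. One listed symbol found no match. Strand use in counting is not given, so reads of overlapping antisense genes cannot be told apart, and near-identical hemoglobin genes may share reads. Floors cover counting error only.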

Additional observations from a re-analysis of the deposited data

Results flagged for a closer look

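Within each group of 7 libraries, the highest and lowest level of each of the 10 genes was checked for a gap to the next library that was wide for the range of the group (Dixon's criterion at its 95% critical value). Of 40 gene and group combinations 3 were marked, and chance marks about 1 in 20. Ttr in mgTNFR1KO remyelination replicate 3 was the lowest of its group at 725.8 CPM, with the next library at 1002 CPM. Clic6 in naive replicate 1 was the highest of its group at 19.09 CPM, with the next at 10.46 CPM, and this is the library in which the most abundant gene took 25.5% of counts. Clic6 in mgTNFR1KO remyelination replicate 6 was the highest of its group at 12.83 CPM, with the next at 8.349 CPM.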

How the results depend on the processing

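The number of the 7 tested genes called depended on the processing. In demyelination against naive (0 called) it was 1 without the filter (Ttr), 1 with the replicate block (Prlr), 1 with DESeq2 (Prlr) and 0 to 1 when 1 library at a time was left out. In TNFR1ff remyelination against naive (1, Prlr) it was 0 without the filter, 0 without naive 1 and mgTNFR1KO 1, and 0 to 1 when 1 library was left out. In mgTNFR1KO remyelination against naive (2) it was 1 without the filter (Ttr), 0 without those 2 libraries, and 0 to 2 when 1 library was left out. In TNFR1ff remyelination against demyelination (0) it was 1 without the filter (Ttr) and 0 to 1 when 1 library was left out. In mgTNFR1KO against TNFR1ff remyelination (0) it was 1 without the filter and 1 with DESeq2 (Ttr in both) and 0 to 1 when 1 library was left out; DESeq2 gave no adjusted p for 5 of the members there. The cause of these changes was not tested.

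Same-numbered libraries of different groups had correlated deviations of −0.131 to 0.302, over 0.1 in 5 of 35 pairs. For each library, the most alike library of each other group bore the same number in 22 of 84 cases, where chance gives 1 in 7. These values do not settle whether the numbers mark something shared. The labels do not say what the numbers mark, so the numbers were used only in an alternative fit. As a block they moved the calls over all genes to 342, 147, 608, 53 and 6, from 249, 78, 403, 48 and 6, in the order above. DESeq2 called 342 in demyelination against naive, 130 in TNFR1ff remyelination against naive and 73 in TNFR1ff remyelination against demyelination. In mgTNFR1KO against TNFR1ff remyelination it called 11. The fit without the filter, over 26337 genes, called 300, 122, 72 and 28 in the same comparisons. With library totals the split in demyelination against naive was 190 higher and 59 lower, against 162 and 87, and in mgTNFR1KO against TNFR1ff remyelination 4 and 0, against 5 and 1. In mgTNFR1KO remyelination against naive, library totals gave 253 calls and leaving out naive 1 and mgTNFR1KO 1 644. There, leaving out mgTNFR1KO replicate 1, 3, 6 or 7 gave 736, 233, 219 and 146, and naive replicate 2, 3 or 5 205, 257 and 196. TNFR1ff remyelination against naive had 154 without TNFR1ff replicate 1.

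The correlation of Clic6 with Ttr turned to 0.107 without naive 1 and mgTNFR1KO 1. That of Sostdc1 was 0.461 with library totals and 0.534 without the 2 farthest libraries, and passed in both. Without naive 1 and mgTNFR1KO 1 it was 0.362 and did not pass. Uncalled log2 fold changes near 0 changed sign. Without naive 1 and mgTNFR1KO 1, Clic6 against naive was 0.10 in TNFR1ff and 0.23 in mgTNFR1KO remyelination. When 1 library was left out, Kl in demyelination against naive ran from −0.04 to 0.23. In TNFR1ff remyelination against naive, Ttr ran from −0.20 to 0.01, Clic6 from −0.27 to 0.10 and Sostdc1 from −0.14 to 0.11. Clic6 in mgTNFR1KO remyelination against naive ran from −0.18 to 0.19, and Enpp2 in TNFR1ff remyelination against demyelination from −0.09 to 0.06. In mgTNFR1KO against TNFR1ff remyelination, Prlr ran from −0.02 to 0.17, Kl from −0.04 to 0.21 and Clic6 from −0.03 to 0.15. No other fold change of a tested gene changed sign. Depth limits the precision for Folr1, Aqp1 and Kcne2, with at most 14 counts in a library.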

Other observations

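Sostdc1 varied with oligodendrocyte genes within groups, a relation added after the data were seen. Its within-group deviations had r = 0.617 with the mean of the 12 oligodendrocyte genes (adjusted p = 0.0244 over 7 relations, permutation within groups), while rho = 0.446 did not pass (adjusted p = 0.178). Enpp2 had r = 0.287 with that mean (adjusted p = 0.411) and Ttr 0.107 (adjusted p = 0.602).

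Markers of brain regions near the ventricles and at the edge of the tissue were read beside the choroid plexus genes. Of 11 cerebellar genes tested 0 were called in any comparison, and their sum ran from 1196 to 1400 CPM in TNFR1ff remyelination and 1354 to 1714 CPM in naive brain, with 8 of 11 at an unadjusted p under 0.05. Of 6 striatal, 5 hypothalamic and 5 olfactory bulb genes tested 0 were called in any comparison. No pituitary gene had enough counts to be tested, and the pituitary sum was at most 14.4 CPM. Among 9 endothelial genes, the glucose transporter gene Slc2a1 was called higher in demyelination (log2 fold change 0.48) and in mgTNFR1KO remyelination (0.41) than in naive brain. The part of sampling of these regions in the levels of the choroid plexus genes was not tested.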
